A study of Mus musculus with 6 samples.

Results

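The IL-6 family members examined here were 10 genes out of the 54146 in the expression table, taken by gene name: the ligands Il6 and Lif, the receptor subunits Il6st, Il6ra, Lifr, Osmr and Il11ra1, the transcription factor Stat3, and its target genes Socs3 and Pim1. Their levels came from RNAseq of D2A1, a mouse mammary tumor cell line, grown as spheroids in Matrigel with serum. In 3 libraries the spheroids received recombinant SLURP1 (rSLURP1), a secreted Ly6/uPAR-related protein, and in 3 libraries recombinant GST (rGST) as the control protein, both at 50 nM by the sample labels. Cells were harvested on day 5 of culture. The cells' own Slurp1 gene was listed at 0 in all 6 libraries. All libraries are of the same cell line in culture, and nothing in the labels says whether those of a treatment came from separate cultures, so p-values measure the spread between libraries. Of the 10 members, 9 passed the filter of 1 TPM (a transcript abundance corrected for transcript length and for the total of the library) in at least 3 libraries. Il6 did not pass and is given by its values.

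Cytokines of the IL-6 family share the signal-transducing subunit gp130, which Il6st encodes. IL-6 and IL-11 first bind a private subunit, encoded by Il6ra and Il11ra1, whereas LIF uses the LIF receptor (Lifr) together with gp130, and oncostatin M uses its own receptor (Osmr) with gp130. Receptor-bound JAK kinases then phosphorylate STAT3, which induces its own inhibitor SOCS3 and survival genes such as the kinase PIM1. In the mammary gland, LIF acting through STAT3 is known for starting the involution that follows weaning.

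Under rSLURP1 the private subunits Il6ra and Il11ra1 fell most, Il6st and Socs3 fell less, and Lif and Pim1 rose. Stat3, Osmr and Lifr did not pass the test. In limma on log2(TPM + 1), adjusted over all 12301 tested genes, 4 of the 9 tested members were lower (44.4%) and 2 were higher (22.2%) at the 0.05 threshold, and the same 6 members were those whose libraries did not overlap between treatments. Of all tested genes, 58.5% were lower and 8.66% higher by this rule, and 61.7% had rSLURP1 libraries all below and 9.75% all above the rGST libraries. With a fold change of at least 2 added, 2 members were lower and 0 higher, beside 7.06% and 1.15% of all tested genes.

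That background was one-sided. The median log2 fold change of all tested genes was -0.33 in the TPM as deposited, against -0.0012 after median-ratio scaling, which sets the typical gene equal between libraries. With median-ratio scaling 4 members were higher and 4 lower, beside 26.0% and 25.2% of all tested genes, and Stat3 and Osmr were then among the higher. Directions are therefore given as deposited, and for the 9 tested members also relative to the median of all tested genes.

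**Figure D1:**
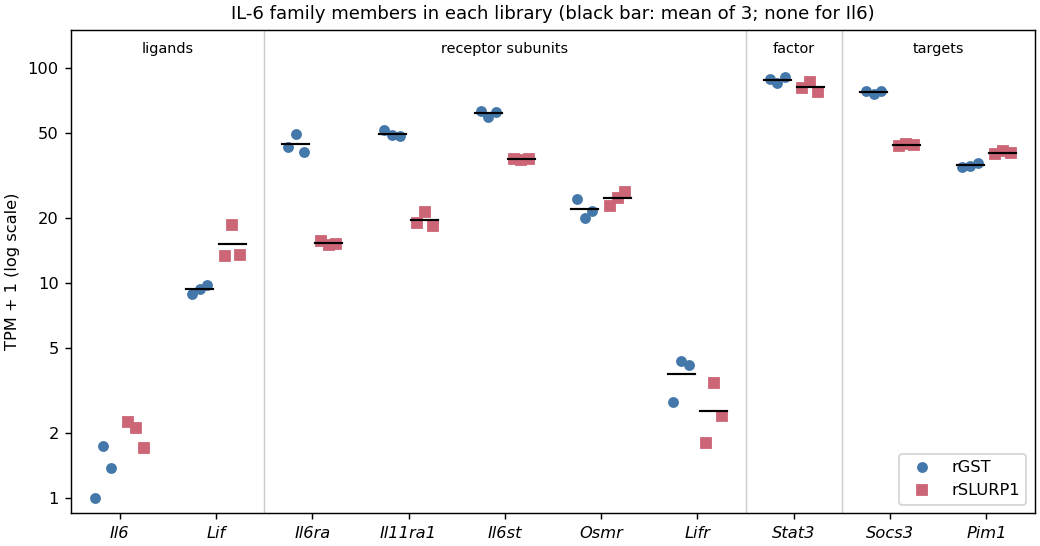
TPM + 1 on a log axis for each of the 10 members in each library, with rGST as circles and rSLURP1 as squares. Each point is a library and each black bar the mean of the 3 libraries, left out for Il6, which was listed at 0 in a library. Il6ra, Il11ra1, Il6st and Socs3 sit lower in all 3 rSLURP1 libraries, and Lif and Pim1 sit higher.

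Among the ligands, Lif (ENSMUSG00000034394.14; GRCm38 chromosome 11, 4257557 to 4272514, plus strand) was at 7.87, 8.40 and 8.75 TPM in rGST libraries 1 to 3 and at 12.4, 17.5 and 12.5 TPM in rSLURP1 libraries 1 to 3. Each rSLURP1 library was above each rGST library, and rSLURP1 library 2 was the highest. The log2 fold change was 0.68 (SE, the standard error, 0.134, limma adjusted p = 0.00282), which put it 1.01 above the median of all tested genes, and it was 0.53 without rSLURP1 library 2.

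Il6 (ENSMUSG00000025746.11; chromosome 5, 30013114 to 30019981, plus strand) was listed at 0, 0.740 and 0.380 TPM with rGST and at 1.25, 1.12 and 0.710 TPM with rSLURP1. The lowest rSLURP1 library lay below the highest rGST library, so the groups overlapped (two-sided exact permutation p = 0.2). TPM keeps no read depth, so the counting error of values this low is unknown. Relative to Lif, the Il6 message was low in every library.

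The other ligands of the family moved in the same direction as Lif where they were called at a fold change of at least 2. Il11, which signals through Il11ra1 and gp130, was at 1.67, 1.5 and 1.83 TPM with rGST and at 6.64, 9.39 and 6.28 TPM with rSLURP1, a log2 fold change of 1.65 (SE 0.157, limma adjusted p = 7.79e-05). Clcf1, a cardiotrophin-like ligand, was at 32.3, 32.5 and 38.4 TPM with rGST and at 72.5, 85.2 and 74.5 TPM with rSLURP1 (log2 fold change 1.15, SE 0.088, limma adjusted p = 2.84e-05). Clcf1 was thus the most abundant ligand of the family under both treatments. Of 9 other family ligands listed, 4 were tested. Of these, Il11 and Clcf1 rose and Ctf1 fell by 0.42 on the log2 scale (limma adjusted p = 0.00463). By the same rule 8.66% of all tested genes rose and 58.5% fell. Ctf1 was at -0.11 with median-ratio scaling, where it was not called, and Cntf was not called either way. Il11 and Clcf1 were still called higher under that scaling, which called 26.0% of all tested genes higher and 25.2% lower. Ctf1 and Cntf were named after their values were seen. Over all 11 family ligands, the summed level was 53.4 to 60.3 TPM with rGST and 101.1 to 121.9 TPM with rSLURP1. Most of this sum was Clcf1 in every library, and only 5 of the 11 ligands passed the filter.

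Among the receptor subunits, Il6ra (ENSMUSG00000027947.11; chromosome 3, 89864059 to 89913196, minus strand), the private subunit for IL-6, was at 41.8, 48.2 and 39.8 TPM with rGST and at 14.6, 14.1 and 14.2 TPM with rSLURP1. The rSLURP1 libraries lay within less than 1 TPM of each other and far below the lowest rGST library. The log2 fold change was -1.53 (SE 0.078, limma adjusted p = 4.57e-06), or -1.20 relative to the median of all tested genes, and the mean rSLURP1 level was 33.0% of the rGST level. In a bulk sample, fewer cells that express a gene and less RNA per cell cannot be told apart.

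Il11ra1 (ENSMUSG00000073889.10; chromosome 4, 41699989 to 41769474, plus strand), the private subunit for IL-11, was at 50.5, 47.9 and 47.1 TPM with rGST and at 18.1, 20.4 and 17.3 TPM with rSLURP1. The libraries again parted by treatment, with a log2 fold change of -1.34 (SE 0.071, limma adjusted p = 5.40e-06) that was -1.01 relative to the median of all tested genes. Of the 50-base stretches in Il11ra1 transcripts of GENCODE M21, 46.3% also occur in the transcripts of Il11ra2 or of Gm13305, so its reads can be split with these copies. The rows named Il11ra1 and Il11ra2 summed to 48.3 to 51.3 TPM with rGST and 17.5 to 20.4 TPM with rSLURP1, which is nearly the Il11ra1 level alone. For each of the other 9 members, less than 1% of such stretches occur in another gene.

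Il6st (ENSMUSG00000021756.12; chromosome 13, 112464070 to 112510086, plus strand), which encodes the shared subunit gp130, was at 62.0, 57.9 and 61.6 TPM with rGST and at 36.6, 36.2 and 36.9 TPM with rSLURP1. Its log2 fold change was -0.71 (SE 0.048, limma adjusted p = 1.49e-05), or -0.39 relative to the median of all tested genes. Every rSLURP1 library lay below every rGST library, and the difference was smaller than for either private subunit.

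Osmr (ENSMUSG00000022146.12; chromosome 15, 6813577 to 6874969, minus strand), the oncostatin M receptor, was at 23.5, 19.2 and 20.6 TPM with rGST and at 21.8, 23.8 and 25.5 TPM with rSLURP1. The groups overlapped, and the log2 fold change was 0.17 (SE 0.092, limma adjusted p = 0.143), or 0.49 relative to the median of all tested genes. With median-ratio scaling it was 0.51 (limma adjusted p = 0.00293), so the call turned with the scaling. It also turned on 1 library, since as deposited the value was 0.24 without rGST library 1 (limma adjusted p = 0.0490) and 0.10 without rGST library 2 (limma adjusted p = 0.377). Its ligand gene Osm was at most 0.02 TPM in any library.

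Lifr (ENSMUSG00000054263.12; chromosome 15, 7090614 to 7197489, plus strand), the LIF receptor, was at 1.78, 3.35 and 3.15 TPM with rGST and at 0.800, 2.42 and 1.41 TPM with rSLURP1. It was by far the lowest of the 5 receptor subunits in every library, and its groups overlapped. The log2 fold change was -0.59 (SE 0.273, limma adjusted p = 0.0916), or -0.26 relative to the median of all tested genes, and -0.36 with median-ratio scaling (limma adjusted p = 0.309). It passed the threshold without rGST library 1 (-0.79, limma adjusted p = 0.0408) or rSLURP1 library 2 (-0.82, limma adjusted p = 0.0289) and missed it without any of the other 4 libraries, where it ran from -0.57 without rSLURP1 library 3 (limma adjusted p = 0.171) to -0.36 without rSLURP1 library 1 (limma adjusted p = 0.263).

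**Figure D2:**
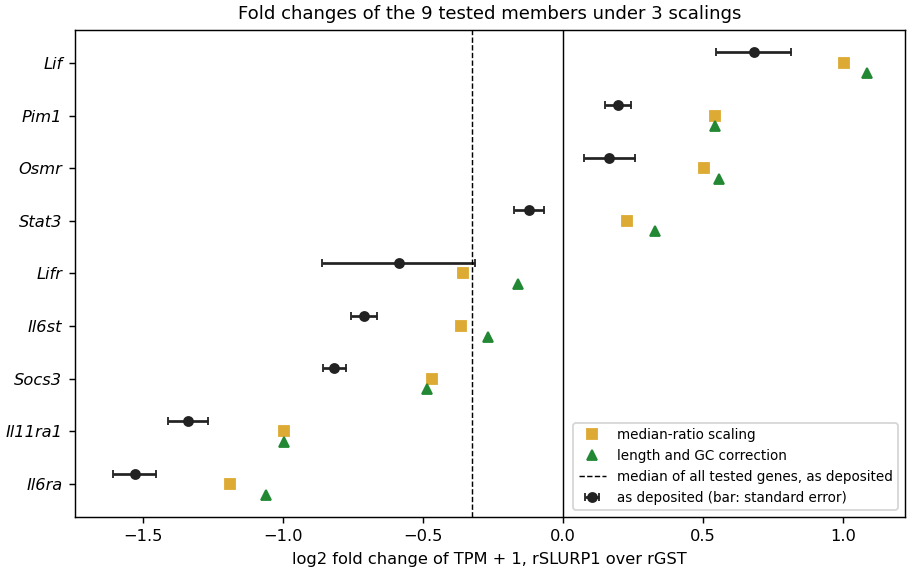
Log2 fold change of TPM + 1, rSLURP1 over rGST, for the 9 tested members, as deposited (circles with the standard error of the limma fit), with median-ratio scaling (squares) and corrected for length and GC content of the transcript (triangles). The dashed line marks the median of all tested genes as deposited, -0.33. Il6ra, Il11ra1, Socs3 and Il6st stay below 0 and Lif and Pim1 above 0 under all 3 scalings, whereas Stat3 moves from -0.12 to 0.23 and 0.33.

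In ratios between members within a library, any single factor applied to the whole library drops out. The ratios were computed from the TPM as deposited and were chosen after the levels were seen. The Il6ra to Il6st ratio was 0.675, 0.832 and 0.646 with rGST and 0.399, 0.389 and 0.384 with rSLURP1. The Il11ra1 to Il6st ratio was 0.814, 0.827 and 0.764 with rGST and 0.494, 0.563 and 0.469 with rSLURP1. Both private subunits therefore lost ground against the shared subunit in every rSLURP1 library.

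The Osmr to Il6st ratio moved the other way, from 0.348 ± 0.027 (SD, n = 3) with rGST to 0.649 ± 0.048 (SD, n = 3) with rSLURP1. The Lif to Il6st ratio rose from 0.138 ± 0.0097 to 0.388 ± 0.084 (SD, n = 3 each). The widest shift among the 11 ratios computed was that of ligand against private subunit for IL-11. Its Il11 to Il11ra1 ratio went from 0.034 ± 0.0040 to 0.397 ± 0.056 (SD, n = 3 each). With rGST, Il11 was at only 1.5 to 1.83 TPM, near the filter of 1 TPM, and its counting error is unknown. For Clcf1 against Cntfr, the private subunit of its receptor, the ratio was 9.85 ± 1.94 and 28.1 ± 4.08 (SD, n = 3 each). Unlike Il6ra and Il11ra1, Cntfr was itself not called. It was at 3.56 ± 0.608 TPM with rGST and 2.77 ± 0.155 TPM with rSLURP1 (SD, n = 3 each). Its log2 fold change was -0.27 (limma adjusted p = 0.108), and 0.0020 with median-ratio scaling. In each of the 11 ratios computed the libraries did not overlap between treatments. Each had a two-sided exact permutation p of 0.1 (adjusted over the 11, p = 0.1), the smallest that 3 libraries against 3 allow. Because the pairs were chosen after the levels were seen, the count and these p-values only describe them. Among single tested genes, 61.7% had rSLURP1 libraries all below and 9.75% all above the rGST libraries. These shares are of levels as deposited, with their one-sided background, and are not a like measure for ratios. No share over ratios of other gene pairs was computed.

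**Figure D3:**
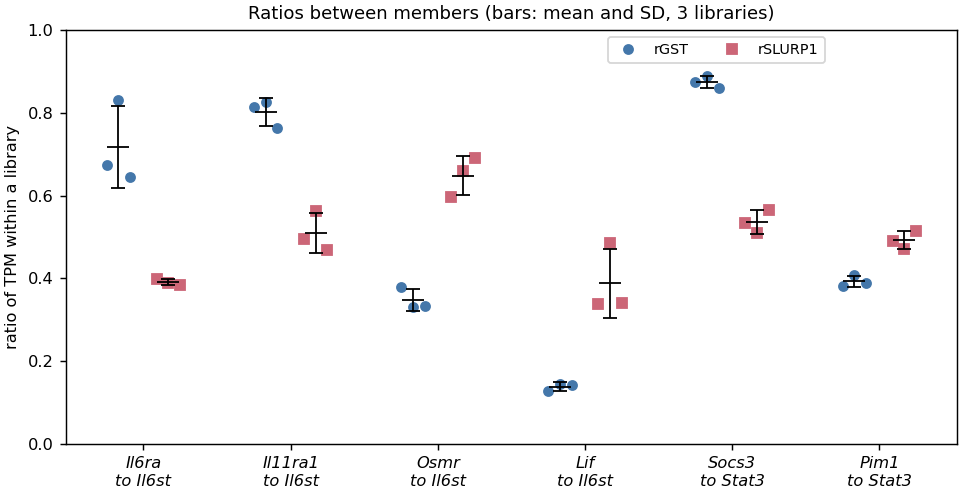
Ratio of the TPM of a pair of members within each library, for 6 pairs, with rGST as circles and rSLURP1 as squares. Bars give the mean and SD of the 3 libraries. Il6ra, Il11ra1 and Socs3 are lower against their partner in all rSLURP1 libraries, and Osmr, Lif and Pim1 are higher.

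Stat3 (ENSMUSG00000004040.16; chromosome 11, 100885098 to 100939540, minus strand), which encodes the transcription factor, was the highest member under both treatments. It was at 88.0, 83.9 and 90.2 TPM with rGST and at 79.4, 85.3 and 76.1 TPM with rSLURP1. The groups overlapped, and the log2 fold change was -0.12 (SE 0.055, limma adjusted p = 0.0837), or 0.20 relative to the median of all tested genes. The sign turned with median-ratio scaling (0.23, limma adjusted p = 0.00486), and without rSLURP1 library 2 it was -0.17 (limma adjusted p = 0.0277). These are levels of the message, and the phosphorylation that activates STAT3 was not measured.

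The target genes moved apart. Socs3 (ENSMUSG00000053113.3; chromosome 11, 117966079 to 117970047, minus strand), the feedback inhibitor that binds gp130, was at 76.9, 74.6 and 77.6 TPM with rGST and at 42.4, 43.4 and 43.0 TPM with rSLURP1. Its log2 fold change was -0.82 (SE 0.042, limma adjusted p = 4.62e-06), or -0.49 relative to the median of all tested genes. Against Stat3 in the same library, Socs3 went from 0.875 ± 0.015 to 0.536 ± 0.029 (SD, n = 3 each).

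Pim1 (ENSMUSG00000024014.7; chromosome 17, 29490753 to 29496112, plus strand), a serine/threonine kinase that promotes survival, was at 33.6, 34.2 and 35.0 TPM with rGST and at 39.0, 40.1 and 39.1 TPM with rSLURP1. The rise was small but the libraries did not overlap, with a log2 fold change of 0.20 (SE 0.047, limma adjusted p = 0.00680), or 0.52 relative to the median of all tested genes. Of the Pim1 exon bases of GENCODE M21, 14.5% are overlapped by Gm26885 on the opposite strand, which was at most 0.19 TPM in any library. Both other PIM kinases were also higher. Pim2 was at 68.1, 65.0 and 67.5 TPM with rGST and at 111.4, 130.6 and 125.0 TPM with rSLURP1 (log2 fold change 0.86, SE 0.063, limma adjusted p = 2.27e-05), and the 3 PIM genes together summed to 164.6 to 168.1 TPM with rGST and 221.9 to 252.5 TPM with rSLURP1.

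STAT dimers bind the gamma-activated site TTCNNNGAA, whose letters read alike on both strands, with TTCCNGGAA as a narrower form contained in it. RefSeq promoter windows (GRCm38.p6, 250 bases before to 50 after each start) were found for all 10 members, in 13 windows. The wide motif was in 1 of these 13 windows, that of Socs3, and in 8.30% of all 32851 windows. The narrow form was in 0 of the 13 and in 1.15% of all windows. The stretch of the Socs3 window that holds the match is shown with those of Bcl6 and Cish, picked after their values were seen because both hold the narrow form and moved in opposite directions, with matches in capitals, 5′ to 3′ on the gene's strand.
Socs3, chr11:117969452-117969616, minus strand: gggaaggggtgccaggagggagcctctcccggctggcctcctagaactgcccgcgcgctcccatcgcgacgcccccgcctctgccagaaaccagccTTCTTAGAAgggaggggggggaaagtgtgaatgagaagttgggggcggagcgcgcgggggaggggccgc
Bcl6, chr16:23981354-23981458, minus strand: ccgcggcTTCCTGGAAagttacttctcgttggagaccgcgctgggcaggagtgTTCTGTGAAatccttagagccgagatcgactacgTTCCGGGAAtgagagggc
Cish, chr9:107296655-107296682, plus strand: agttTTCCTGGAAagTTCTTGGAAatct

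The Socs3 match begins 154 bases before the RefSeq start, and the stretch shown overlaps no Socs3 exon of GENCODE M21, whereas the Cish stretch spans the RefSeq start and overlaps a Cish exon. Socs3 fell, as above. Cish, a SOCS family inhibitor with 2 matches, was at 4.51, 4.16 and 3.83 TPM with rGST and at 1.53, 2.02 and 1.61 TPM with rSLURP1 (limma adjusted p = 4.70e-04). Bcl6, a transcriptional repressor with 3 matches in the window shown, was at 17.3, 18.5 and 17.8 TPM with rGST and at 24.5, 26.5 and 22.8 TPM with rSLURP1 (limma adjusted p = 0.00114). Over the other pathway lists, 9 of 87 windows held the wide motif, those of 7 genes. Beside Bcl6 and Cish these were Tnfrsf1a and Zfp36, both higher, Gab1, which was lower, and Icam1 and Il31ra, which were not tested. A match is a run of letters and not a measured binding site.

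The other genes of the pathway were described from lists drawn up from general knowledge. Of 8 receptor kinases and adaptors, 7 were lower (87.5%), 0 higher and Grb2 not called. Of all tested genes, 58.5% were lower and 8.66% higher. The median log2 fold change of the 8 was -0.44 beside -0.33 for all tested genes. With median-ratio scaling 3 of the 8 were lower and 2 higher, beside 25.2% and 26.0% of all tested genes. Gab1, the docking adaptor for the phosphatase SHP2, was the only gene of this list called at a fold change of at least 2. It was at 23.2, 22.8 and 20.8 TPM with rGST and at 8.61, 8.01 and 9.12 TPM with rSLURP1. The JAK genes, all 4 of them lower, ranged from -0.90 to -0.42 on the log2 scale as deposited and from -0.58 to -0.07 with median-ratio scaling, where 2 of the 4 were called lower.

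Among other STAT genes, Stat2, a factor of type I interferon signaling, fell from 26.3 ± 2.94 to 8.51 ± 0.872 TPM (SD, n = 3 each), which is -1.52 on the log2 scale (limma adjusted p = 1.77e-05). Stat5a, the factor of prolactin signaling, fell from 29.4 ± 1.88 to 12.6 ± 0.613 TPM (SD, n = 3 each), which is -1.16 on the log2 scale (limma adjusted p = 1.08e-05). With median-ratio scaling Stat2 was at -1.19 and Stat5a at -0.82, both called lower, as were 25.2% of all tested genes. Counts over this list are not reported here. Stat5a lies beside Stat3 on the opposite strand and overlaps 0.756% of Stat3 exon bases, and the strand setting of the authors' counting is not given in the sources used here.

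Of 14 negative regulators of JAK and STAT signaling, 11 were lower and 0 higher, with a median log2 fold change of -0.34, close to that of all tested genes, of which 58.5% were lower and 8.66% higher. With median-ratio scaling 5 of the 14 were lower and 0 higher, beside 25.2% and 26.0% of all tested genes. Pias3, an inhibitor of STAT3, fell from 32.1 ± 1.74 to 14.6 ± 0.577 TPM (SD, n = 3 each). Of 4 genes for the shedding of receptors from the cell surface, Adam17 and Rhbdf2 were higher and Adam10 and Rhbdf1 lower. All were below a fold change of 2. Each direction thus held 50.0% of the 4, whereas 8.66% of all tested genes rose and 58.5% fell. With median-ratio scaling Adam10 was higher too, which made 3 of the 4 higher and 1 lower. Of all tested genes, that scaling called 26.0% higher and 25.2% lower. The most abundant of the 4, Rhbdf1, was at 101.2, 100.4 and 96.0 TPM with rGST and at 49.3, 53.2 and 61.8 TPM with rSLURP1. Of 8 regulators of cytokine mRNA, 2 were higher and 5 lower, a lower share of 62.5% beside 58.5% of all tested genes, and with median-ratio scaling 2 were higher and 2 lower. Zfp36l2, which promotes decay of AU-rich messages, fell from 278.5 ± 2.64 to 105.9 ± 6.58 TPM (SD, n = 3 each).

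Known STAT3 target genes were called in both directions. Of 38 listed, 31 were tested, of which 10 were higher (32.3%), 12 lower (38.7%) and 9 not called, with a median log2 fold change of -0.07. Among all tested genes the higher share was 8.66% and the lower share 58.5%. Under median-ratio scaling 17 of the 31 were higher and 9 lower, beside 26.0% and 25.2% of all tested genes. Lbp, the acute-phase protein that binds lipopolysaccharide, was at 57.9, 60.1 and 51.2 TPM with rGST and at 1.22, 1.30 and 1.63 TPM with rSLURP1, a log2 fold change of -4.59 (SE 0.10, limma adjusted p = 1.54e-07). Gadd45g, a growth-arrest gene, had a log2 fold change of -1.64. Fos, an immediate early gene, was at 4.45, 5.83 and 3.88 TPM with rGST and at 15.1, 17.4 and 15.9 TPM with rSLURP1, a log2 fold change of 1.60.

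**Figure D4:**
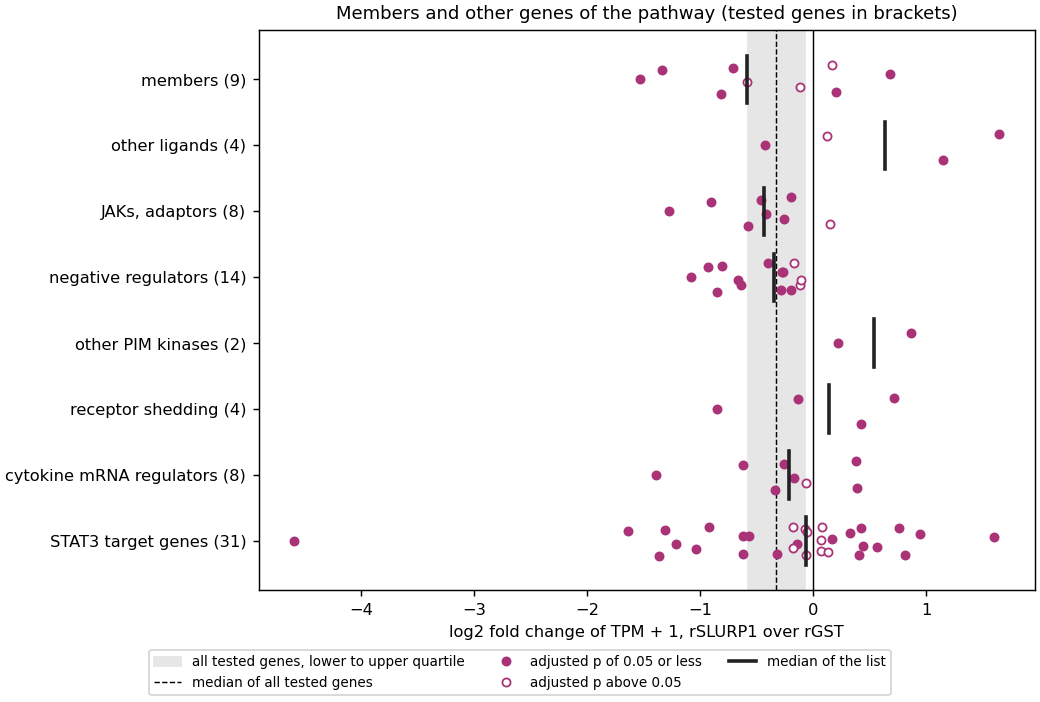
Log2 fold change of TPM + 1, rSLURP1 over rGST, for the tested members and the tested genes of 7 pathway lists, a point per gene. Filled points passed the 0.05 threshold of the adjusted p-value, heavy bars are list medians, the grey band runs from the lower to the upper quartile of all tested genes (-0.58 to -0.07) and the dashed line is their median. The STAT3 target genes spread to both sides of the band, and both other PIM kinases lie right of it.

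In order of level, the members ran Stat3, Socs3, Il6st, Il11ra1, Il6ra, Pim1, Osmr, Lif, Lifr and Il6 with rGST, where only Il11ra1 and Il6ra overlapped between neighbours. With rSLURP1 the order was Stat3, Socs3, Pim1, Il6st, Osmr, Il11ra1, Il6ra, Lif, Lifr and Il6. There Il6ra and Lif overlapped, as did Lifr and Il6. Pim1 and Osmr thus passed the private subunits, which stood above them with rGST.

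The libraries of a treatment resembled each other, with Pearson correlations of log2(TPM + 1) across tested genes of 0.983 to 0.986 within and 0.941 to 0.950 between treatments, whereas the number of genes at 1 TPM or more parted by treatment, at 12390 to 12449 with rGST and 11906 to 11981 with rSLURP1. Several defining markers of epithelial cells were absent. Epcam, Krt5 and Krt14 were listed at 0 in all 6 libraries and Cdh1 was at most 0.07 TPM, while 6 epithelial markers summed to 192.7 to 200.5 TPM with rGST and 196.8 to 200.2 TPM with rSLURP1, nearly all of it Krt18. Krt8, the only other of the 6 that was tested, fell from 1.56 ± 0.14 to 0.697 ± 0.163 TPM (SD, n = 3 each). Its log2 fold change was -0.60 (limma adjusted p = 0.00968), and -0.41 with median-ratio scaling (limma adjusted p = 0.0554). All 5 fibroblast markers listed (Pdgfra, Pdgfrb, Col1a1, Dcn and Lum) fell, none of them at 0 in all libraries, and their sum was 1007 to 1138 TPM with rGST and 75.2 to 85.1 TPM with rSLURP1. Of 3 markers listed for mesenchymal tumor cells, Vim was at 1259 ± 78.4 TPM with rGST and 665 ± 30.3 TPM with rSLURP1 (SD, n = 3 each). S100a4 was at 1495 ± 52.4 and 1443 ± 94.1 TPM (SD, n = 3 each), and Cdh2 was at most 0.05 TPM in any library. Of 8 leukocyte markers only Cd68 passed the filter, the sum was 3.58 to 4.2 TPM with rGST and 8.12 to 10.7 TPM with rSLURP1, and Cd3e, Adgre1 and Itgam were listed at 0 throughout. The sum of 4 endothelial markers was at most 0.31 TPM. The part of these markers in the results on the members was not tested.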

How the data were processed

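RNAseq of D2A1 spheroids was analysed in 6 libraries, grouped by the sample labels. The deposited values are TPM, 1 column per library, which the authors obtained with RSEM (1.3.3 in the submitters' processing notes) from STAR alignments to mm10 of Cutadapt-trimmed reads. The paper's methods name Smart-seq2 libraries and GENCODE M12, and the labels a TruSeq mRNA kit. TPM keeps no read depth, so no counting error was computed.

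Genes that reached 1 TPM in 3 or more libraries were tested on log2(TPM + 1) with limma 3.58.1 (R 4.3.3; lmFit, eBayes with trend), rSLURP1 against rGST, with Benjamini-Hochberg adjustment over 12301 genes. The pseudocount of 1 understates fold changes of low genes. Called means an adjusted p-value of 0.05 or less. The fit was tested on simulated data in which few genes changed, equally many in each direction. That setting does not cover the one-sided background of these data. Beyond the members, genes named were at most 3 per list with the largest fold change of at least 2 and separated libraries, or else the most abundant. Members and lists were chosen with earlier results of these data known. Coordinates are from GENCODE M21 (GRCm38), where 54079 of 54146 gene identifiers matched without version. Promoters are from RefSeq. Figures used matplotlib 3.10.9 and pandas 2.3.3. Some genes of the pathway lists are not reported here.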

Additional observations from a re-analysis of the deposited data

How the results depend on the processing

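Each library was left out in turn, and the fit was repeated with quantile or median-ratio scaling, a replicate block, eBayes with no trend, a pseudocount of 0.1, the filter dropped or required in all 6 libraries, and mitochondrially encoded genes removed. A loess correction (span 0.3) for length and GC content of the transcripts, without and with the block, was chosen after seeing the data. Il6ra, Il11ra1, Il6st, Socs3, Lif and Pim1 kept their direction and stayed below 0.05 in all 16 alternatives, with log2 fold changes from -1.59 to -1.06, -1.40 to -0.97, -0.74 to -0.27, -0.83 to -0.47, 0.53 to 1.09 and 0.18 to 0.55. Stat3 turned positive, at 0.23 (median-ratio), 0.16 (quantile) and 0.33 (length and GC correction, also 0.33 in its blocked form). As deposited it was at 0.20 relative to the median of all genes. Osmr passed 0.05 in 5 alternatives. Lifr was not tested with the filter in all 6 libraries, and Il6 was tested only without a filter (log2 fold change 0.59, adjusted p = 0.108).

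Over the members, 130 of 143 values kept both direction and call, 9 became stronger and 4 reversed. From 6 to 8 members, 57 to 60 genes of the other pathway lists and 7561 to 7905 of all genes were called when 1 library was left out, against 6, 61 and 8265. Lower genes made up 87.1% of all calls as deposited, 49.2% after median-ratio scaling, 48.3% after quantile scaling and 50.5% after correcting length and GC. With the replicate block, 7962 genes and 7 members were called, Lifr (adjusted p = 0.0204) being the addition. Same-numbered libraries did not deviate together (correlations -0.056, -0.034 and -0.061). Whether they shared a culture or a preparation cannot be told from these values or the labels. Transcript length and log2 fold change had a Spearman correlation of -0.25 across tested genes. TPM keeps no depth, so what depth limits in low genes such as Il6 and Lifr is unknown.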
